A study of Rattus norvegicus with 21 samples.

Results

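The 7 genes described here carry the insulin signal from the surface of the liver cell to the nucleus: the insulin receptor Insr, the insulin receptor substrates Irs1, Irs2 and Irs3, the regulatory subunit of phosphoinositide 3-kinase Pik3r1, the protein kinase Akt2 and the transcription factor Foxo1. They were chosen by gene symbol, and each symbol matched 1 of the 32623 genes in both deposited tables. RNA-seq of rat liver gave 21 libraries, 3 in each of 7 groups. Wistar rats were sampled on day 23, as controls and as early weaned animals, and on day 63, again as controls and as early weaned animals. Sprague Dawley (SD) rats were sampled on day 211 as controls, as early weaned animals, and as early weaned animals given 1.5% leucine in their drinking water. No group carries a transgene or a deleted allele, and the labels state neither sex nor the day of weaning. Nothing in the labels says that the libraries of a group are from separate animals, and the p-values cover only the spread between these libraries. Day 211 is the only SD age, and its libraries stand in a table of their own, so age, strain and table cannot be told apart there; the tables were normalized separately and were not tested against each other.

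Insulin binding switches on the tyrosine kinase of the receptor, which phosphorylates the substrate proteins. These dock phosphoinositide 3-kinase, whose lipid product recruits AKT to the membrane, and AKT keeps FOXO1 out of the nucleus. In the fasted liver FOXO1 is nuclear and raises genes of glucose release together with Irs2 and Insr themselves, whereas insulin lowers them; IRS1 and IRS2 are the main hepatic substrates, and IRS3 is a short rodent relative first known from fat cells.

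The deposited values are counts and FPKM (fragments scaled to transcript length and to the size of the library). All 7 genes passed the low-count filter in both tables, which left 15416 Wistar and 15019 SD genes to test, and library totals ran from 52054644 to 75118153 counts. A gene was called changed when edgeR's quasi-likelihood test gave a Benjamini-Hochberg adjusted p below 0.05 over all genes of its table. Log2 fold changes are given with a standard error (SE) calculated back from the fold change and the test statistic. The livers carried their defining markers, since none of the 9 hepatocyte markers was at 0 throughout and they summed to at least 55166 FPKM in every Wistar library and 71360 FPKM in every SD library. Some libraries stood apart. Day 23 control replicate 3 correlated at r = 0.898 to 0.901 with its own group and at 0.91 to 0.937 with the 6 day 63 libraries. Day 63 control replicate 2 reached only 0.942 to 0.944 with its own group, and day 211 early weaned replicate 2 was closer to control replicate 1 (0.970) than to its own group (0.956 to 0.963). For some results of the 7 members, values without these libraries are also given, a choice made after the values were seen. Values of other genes are given with all libraries in. In bulk liver RNA, fewer cells of a type and less RNA per cell cannot be told apart.

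Promoter sequence from RefSeq (build GRCr8, 250 bases before to 50 bases after the start) was matched for 6 of the 7 members. The receptor and Irs3 are shown, the receptor because it alone among the 6 held one of the motifs searched, and Irs3 because it is the member that changed with weaning. Both promoters lie on chromosome 12, the receptor's at chr12:6128754-6129053 on the minus strand and that of Irs3 at chr12:24689680-24689979 on the plus strand. Capitals mark the only match to a motif in either window, the forkhead (FOXO-type) motif GTAAACA read on the other strand.
Insr: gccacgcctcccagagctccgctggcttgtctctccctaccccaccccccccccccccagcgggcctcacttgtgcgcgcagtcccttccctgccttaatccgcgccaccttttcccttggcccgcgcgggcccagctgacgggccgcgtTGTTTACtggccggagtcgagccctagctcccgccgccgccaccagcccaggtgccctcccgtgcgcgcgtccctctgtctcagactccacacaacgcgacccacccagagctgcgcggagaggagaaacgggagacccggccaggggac
Irs3: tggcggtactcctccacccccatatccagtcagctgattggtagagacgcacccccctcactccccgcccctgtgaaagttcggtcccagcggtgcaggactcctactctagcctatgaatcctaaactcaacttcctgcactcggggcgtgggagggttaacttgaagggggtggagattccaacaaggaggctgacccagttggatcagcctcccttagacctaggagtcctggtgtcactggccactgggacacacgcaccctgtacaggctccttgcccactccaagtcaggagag
The motifs searched on both strands were GTAAACA, found in 3.78% of 33469 rat promoter windows of the same length, the insulin response core CAAAACA in 6.28%, the E-box CACGTG in 6.42% and the sterol-type motif TCACNCCAC in 1.12%. The windows of Irs1, Irs3, Pik3r1, Akt2 and Foxo1 held none of these letters. A match describes the letters of the window and not binding there.

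**Figure D1:**
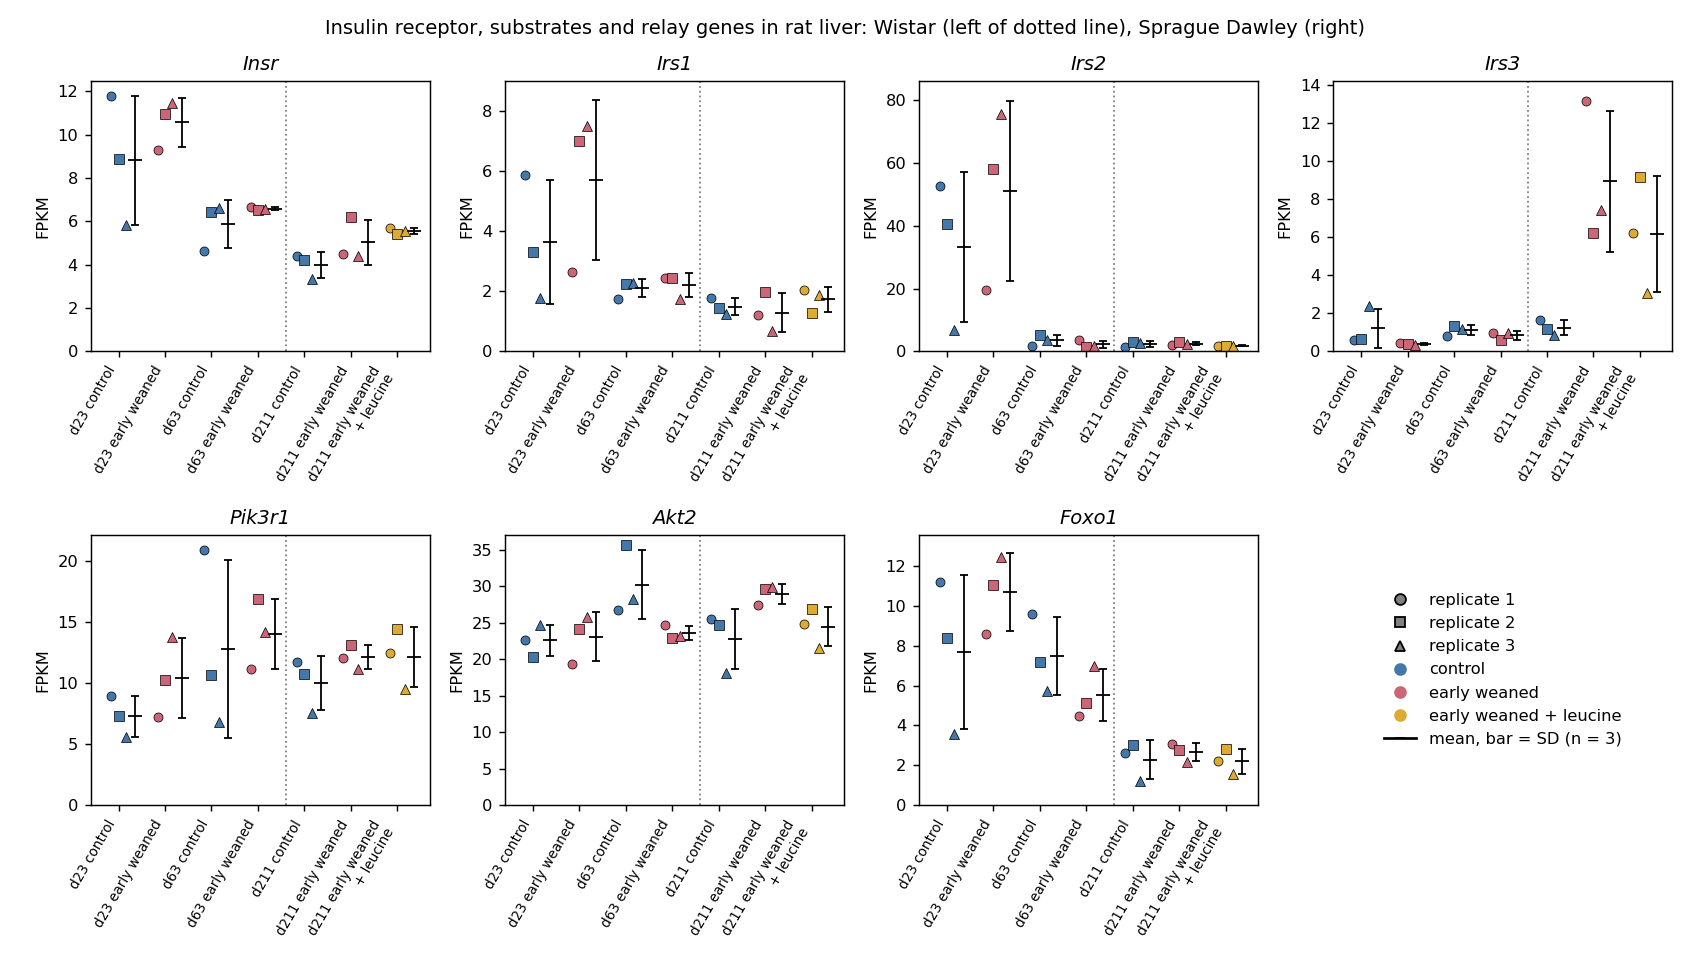
FPKM of the 7 genes in all 21 libraries (vertical axes, linear, each starting at 0), by group; symbols mark replicates 1 to 3, and dash and bar give the mean and SD (n = 3). Irs2 stood between 6.67 and 75.6 in the 6 day 23 libraries and at 5.10 or below in all later ones, and Irs3 stood between 3.08 and 13.2 in the 6 early weaned day 211 libraries and at 2.39 or below in the rest.

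By level per length, Akt2 was the most abundant of the 7 genes, with a median of 24.7 FPKM over the 21 libraries. Pik3r1 followed at 11.2 FPKM, Insr at 6.22, Foxo1 at 4.48, Irs2 at 2.98, Irs1 at 1.98 and Irs3 at 1.19. The range differed more between the genes than the median did. Akt2 ran from 18.0 to 35.6 FPKM, whereas Irs2 ran from 1.31 to 75.6 FPKM and Irs3 from 0.35 to 13.2 FPKM.

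The receptor, Insr (ENSRNOG00000029986, chromosome 12, 1680957 to 1816414, minus strand, in the rat build of the tables, which they do not name), had lower group means at later ages, with no call in the main test. In the day 23 controls it stood at 11.8, 8.88 and 5.81 FPKM, and in the day 23 early weaned livers at 9.30, 10.9 and 11.5 FPKM. On day 63 the controls read 4.61, 6.41 and 6.63 FPKM and the early weaned livers 6.67, 6.52 and 6.56 FPKM. The early weaned groups of the 2 ages did not overlap; the controls did, through day 23 control replicate 3. The age difference was -0.58 on the log2 scale in controls (SE 0.234, edgeR adjusted p = 0.103) and -0.56 in early weaned livers (SE 0.234, adjusted p = 0.0955), and neither passed the test. Without both control libraries that stood apart it passed, at -0.88 in controls (edgeR adjusted p = 0.00955) and -0.56 in early weaned livers (adjusted p = 0.0258). No early weaned library was left out, so the second p-value moved through the fit that all groups share.

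On day 211 Insr read 4.42, 4.21 and 3.32 FPKM in controls, 4.48, 6.22 and 4.38 FPKM in early weaned livers, and 5.68, 5.41 and 5.55 FPKM with leucine. Every leucine library lay above every control library. That difference was 0.42 on the log2 scale (SE 0.194) and did not pass the test over all genes (edgeR adjusted p = 0.473). In order of the group mean, Insr ran from 10.6 ± 1.13 FPKM (SD, n = 3) in day 23 early weaned livers through 8.82 ± 2.98 in day 23 controls, 6.58 ± 0.0777 and 5.88 ± 1.11 in day 63 early weaned and control livers, to 5.55 ± 0.132, 5.03 ± 1.03 and 3.98 ± 0.586 in the leucine, early weaned and control livers of day 211. The ranges of all neighbours in this order overlapped, and the order crosses the separately normalized tables between the day 63 controls and the leucine group.

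Irs1 (ENSRNOG00000014597, chromosome 9, 88033668 to 88086488, minus strand), the substrate most often linked to growth and to insulin action in muscle as well as liver, had its highest values on day 23 and a wide spread there. Its entry overlaps the same-strand entry AC103270, so its counts are uncertain. It read 5.86, 3.30 and 1.79 FPKM in day 23 controls and 2.64, 7.0 and 7.5 FPKM in day 23 early weaned livers. On day 63 it read 1.76, 2.26 and 2.29 FPKM in controls and 2.46, 2.43 and 1.74 FPKM in early weaned livers. The early weaned groups of the 2 ages did not overlap. Their difference was -1.25 on the log2 scale (SE 0.442, edgeR adjusted p = 0.0569), just outside the threshold. Without both control libraries that stood apart it was inside it (-1.25, edgeR adjusted p = 0.029). The libraries compared were the same, so this p-value moved through the fit that all groups share. In controls the difference was -0.80 (SE 0.439, edgeR adjusted p = 0.219). Leaving out 1 library in turn moved it between -1.13 and -0.25 (edgeR adjusted p from 0.0477 to 0.75). On day 211 all 9 libraries lay between 0.689 and 2.05 FPKM, the groups overlapped, and no comparison passed the test.

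Irs2 (ENSRNOG00000023509, chromosome 16, 83824430 to 83848684, plus strand), the hepatic substrate that fasting raises and insulin lowers, showed the widest difference between ages. In the day 23 controls it stood at 52.7, 40.5 and 6.67 FPKM, the last in replicate 3, and in the day 23 early weaned livers at 19.4, 58.1 and 75.6 FPKM. On day 63 it stood at 1.77, 5.10 and 3.67 FPKM in controls and at 3.62, 1.31 and 1.70 FPKM in early weaned livers. All 6 day 23 libraries lay above all 6 day 63 libraries. From day 23 to day 63 Irs2 was 9.49-fold lower in controls (log2 -3.25, SE 0.772, edgeR adjusted p = 0.0209) and 21.3-fold lower in early weaned livers (log2 -4.41, SE 0.815, adjusted p = 0.00553).

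Irs2 was the only 1 of the 7 members called in either age comparison. Over all genes 17.6% were called between the ages in controls, 9.61% as lower, and 27% in early weaned livers, 13.5% as lower. In controls the call was lost without any one of day 23 replicates 1 and 2 and day 63 replicates 1 and 3 (edgeR adjusted p = 0.0774, 0.0625, 0.076 and 0.0688) and when the control groups were fitted alone (adjusted p = 0.0836). It was firmer without day 23 control replicate 3 (log2 -3.73, adjusted p = 0.0012). In early weaned livers the call held without each library in turn, between -4.94 and -4.05 on the log2 scale.

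The age differences were not shown to depend on weaning. The difference of the age effects was -1.17 for Irs2 (SE 1.01, edgeR adjusted p = 1) and 1.36 for Irs3 (SE 0.704, adjusted p = 1), no member was called, and over all genes 0.00649% were. On day 211 Irs2 stayed low, at 1.43, 3.02 and 2.53 FPKM in controls, 1.97, 2.98 and 2.37 FPKM in early weaned livers and 1.82, 1.64 and 1.83 FPKM with leucine. The leucine libraries all lay below the early weaned ones, by 0.32 on the log2 scale in the fit (log2 -0.32, SE 0.292, edgeR adjusted p = 0.735).

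Genes that answer to insulin and FOXO1 in liver were examined beside Irs2. Of 17 tested genes that insulin lowers or FOXO1 raises, a list that includes Irs2 and Insr, 5 fell and 1 rose from day 23 to day 63 in controls, with a median log2 change of -0.88 against -0.04 over all genes; 35.3% of the list was called against 17.6% of all genes. In early weaned livers 7 fell and 3 rose, with a median of -1.16 against -0.02, and 58.8% were called against 27%. Igfbp1, a secreted binder of insulin-like growth factors, fell with Irs2: it read 7721, 5747 and 473 FPKM in day 23 controls and 62.9, 87.0 and 89.7 FPKM in day 63 controls (log2 -5.86, edgeR adjusted p = 0.00701). G6pc, the enzyme that releases free glucose, fell by 2.62 on the log2 scale in controls (adjusted p = 0.00935) and by 3.72 in early weaned livers (adjusted p = 0.00186). Ppargc1a, a coactivator of fasting genes, fell by 4.51 (adjusted p = 0.012) and 5.97 (adjusted p = 0.00352).

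The replicate that was low for Irs2 was low for these genes too. Day 23 control replicate 3 was the lowest of the 6 day 23 libraries for Irs2, Igfbp1, G6pc and Ppargc1a, the last at 2.35 FPKM against 15.3 and 54.5 FPKM in replicates 2 and 1. The fifth gene to fall in controls was Sesn1, a stress-induced inhibitor of mTORC1 (-2.87, edgeR adjusted p = 0.0179), and the gene that rose was Bcl6, a transcriptional repressor (3.28, adjusted p = 0.0118). In early weaned livers the 3 that rose were Bcl6, the lipoprotein lipase inhibitor Angptl4 (1.40, adjusted p = 0.017) and the apolipoprotein Apoc3 (1.43, adjusted p = 0.00466). Members of the list thus moved in both directions.

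Among genes that insulin raises in liver, Srebf1, the lipogenic transcription factor, rose between the ages by 1.41 on the log2 scale in controls (edgeR adjusted p = 0.0319) and by 2.17 in early weaned livers (adjusted p = 0.00514). Insig1, the endoplasmic reticulum protein that holds back sterol regulatory proteins, fell in early weaned livers (log2 -4.15, adjusted p = 0.0166), and Angptl8, a feeding-induced secreted protein, rose there (log2 2.74, adjusted p = 0.00514).

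Other genes moved between the ages as well. Of 17 circadian genes tested, 2 rose and 4 fell in controls (35.3%, against 17.6% of all genes) and 4 rose and 4 fell in early weaned livers (47.1%, against 27%), among them in controls Cry1 (log2 -2.58, edgeR adjusted p = 0.00249) and Dbp (1.93, adjusted p = 0.00862). Some markers of other cells were called too, against the same shares of all genes. In controls 3 of 8 lymphocyte markers rose (37.5%), and 2 of 7 endothelial (28.6%) and 2 of 8 stellate cell markers (25%) fell. In early weaned livers 3 lymphocyte markers rose (37.5%), and 4 endothelial (57.1%) and 2 stellate cell markers (25%) fell. Of 9 Kupffer cell markers 1 fell in each (11.1%). Cholangiocyte markers were called at 16.7% in controls and 0% in early weaned livers, and blood cell markers at 0% in both. Of 9 hepatocyte markers, 3 rose and 1 fell in controls (44.4%) and 6 rose and 1 fell in early weaned livers (77.8%). Summed lymphocyte markers ran from 1.30 to 2.11 FPKM in day 23 controls and from 3.95 to 10.9 FPKM in day 63 controls, and from 1.46 to 1.64 FPKM and 3.49 to 5.87 FPKM in the early weaned livers of the same days. Their part in the fall of Irs2 was not tested.

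**Figure D2:**
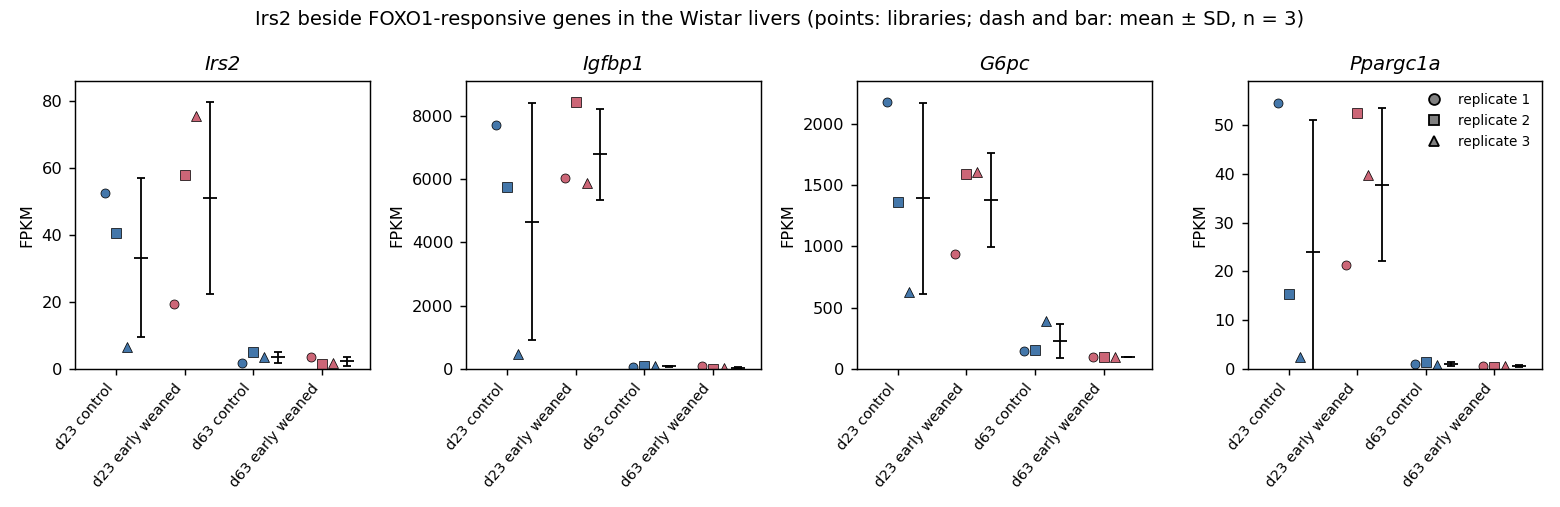
FPKM of Irs2, Igfbp1, G6pc and Ppargc1a in the 12 Wistar libraries (linear axes starting at 0; points are libraries, dash and bar the mean and SD, n = 3; the lower end of the day 23 control bar of Ppargc1a lies below 0 and is not drawn). Irs2, Igfbp1, G6pc and Ppargc1a were higher in every day 23 library than in every day 63 library, with day 23 control replicate 3 the lowest of the day 23 libraries.

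Irs3 (ENSRNOG00000001389, chromosome 12, 22122953 to 22125091, plus strand) was the member that changed with early weaning. On day 211 it stood at 1.65, 1.19 and 0.863 FPKM in controls (117 to 181 counts), at 13.2, 6.22 and 7.44 FPKM in early weaned livers (770 to 1711 counts), and at 6.20, 9.17 and 3.08 FPKM in early weaned livers with leucine (379 to 1030 counts). All 6 early weaned libraries, with or without leucine, lay above all 3 controls. Early weaned livers held 6.20-fold more Irs3 than controls (log2 2.63, SE 0.425, edgeR adjusted p = 0.04). It was 1 of 7 members called, against 0.719% of all genes, 0.419% as higher.

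The call stood close to its threshold. It was kept without early weaned replicate 2, the library that lay nearer to a control (log2 2.81, edgeR adjusted p = 0.016). It was lost without control replicate 1, 2 or 3 (adjusted p = 0.0557, 0.114 and 0.131) and without early weaned replicate 1 or 3 (adjusted p = 0.153 and 0.0968), while the log2 difference stayed between 2.29 and 2.86. With leucine, Irs3 was 4.79-fold above controls (log2 2.26, SE 0.42) and was not called (edgeR adjusted p = 0.237), although DESeq2's Wald test called it (adjusted p = 2.72e-05). By edgeR no member was called in that comparison, and 0.0133% of all genes were. Between leucine and early weaned livers Irs3 differed by -0.37 (SE 0.397, edgeR adjusted p = 0.795), no member was called, and 0.36% of all genes were. The comparisons with controls share the same 3 control libraries.

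Adipocyte markers were read beside Irs3. Lep, Plin1 and Adrb3 were at 0 in every SD library, whereas Adipoq and the other markers of the list were not. In controls the 9 markers summed to between 36.3 and 51.6 FPKM. They summed to between 26.0 and 48.8 FPKM in early weaned livers and between 35.9 and 41.2 FPKM with leucine, with overlap. Only 4 of the 9 passed the low-count filter, and none of these was called. Between early weaned and control livers 0.719% of all genes were called, so an absence of calls among 4 genes says little. Summed cholangiocyte markers did not overlap between controls and early weaned livers, at 8.26 to 13.5 FPKM and 16.1 to 30.6 FPKM, and read 10.1 to 15.5 FPKM with leucine. None of the 6 was at 0 in all SD libraries; most of the sum was Epcam, an epithelial adhesion molecule (log2 1.04, edgeR adjusted p = 0.0903). Summed lymphocyte markers read 4.51 to 5.66 FPKM in controls and 6.12 to 10.9 FPKM in early weaned livers, without overlap. With leucine they read 3.92 to 8.42 FPKM and overlapped the controls. On the FPKM scale the median of all genes was itself higher in early weaned than in control livers, by 0.168 in log2(FPKM + 1). None of the 6 cholangiocyte and 8 lymphocyte markers was called, and the share of all genes without overlap was not computed. Of 18 circadian genes tested between early weaned and control livers, 3 fell (Hlf, Clock and Tef) and Npas2 rose (22.2%, against 0.719% of all genes). The part of these genes in the Irs3 difference was not tested.

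In the Wistar livers Irs3 was scarce. On day 23 it read 0.60, 0.63 and 2.39 FPKM in controls and 0.43, 0.37 and 0.35 FPKM in early weaned livers, and the groups did not overlap. The difference was -1.68 on the log2 scale (SE 0.51) and was not called (edgeR adjusted p = 0.666). Replicate 3, the library that stood apart, supplied the highest value; without it the difference was -0.71 (adjusted p = 0.629). On day 63 Irs3 read 0.81, 1.33 and 1.19 FPKM in controls and 0.94, 0.58 and 0.99 FPKM in early weaned livers. Between the ages it differed by 1.25 in early weaned livers (SE 0.506, edgeR adjusted p = 0.0874), without overlap, and by -0.11 in controls (SE 0.492, adjusted p = 0.894). Without both control libraries that stood apart, these became 1.25 (edgeR adjusted p = 0.00966) and 0.71 (adjusted p = 0.155). The early weaned libraries were the same, so their p-value moved through the fit that all groups share.

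The make-up of the substrate transcripts differed between day 23 and day 63, and on day 211 between control and early weaned livers. This description, the share of each gene in the summed FPKM of Irs1, Irs2 and Irs3, was chosen after the values were seen. On day 23 Irs2 made up 89.1%, 91.2% and 61.5% of the sum in controls and 86.4%, 88.8% and 90.6% in early weaned livers. On day 63 it made up 40.8%, 58.7% and 51.3% in controls and 51.6%, 30.3% and 38.4% in early weaned livers. On day 211 Irs3 made up 33.9%, 21.1% and 18.6% in controls, 80.6%, 55.7% and 70.9% in early weaned livers and 61.6%, 75.9% and 45.4% with leucine, so that it was the largest share in each of the 6 early weaned libraries and in none of the 3 controls, where Irs1 (replicate 1, 36.7%) or Irs2 (replicates 2 and 3, 53.4% and 54.5%) led. The summed level was 38.2 ± 24.8 FPKM (SD, n = 3) in day 23 controls and 57.2 ± 31.3 FPKM in day 23 early weaned livers. On day 63 it was 6.73 ± 2.21 FPKM in controls and 5.26 ± 1.53 FPKM in early weaned livers. On day 211, normalized separately, it was 5.05 ± 0.529 FPKM in controls, 12.7 ± 3.19 FPKM in early weaned livers and 9.64 ± 2.67 FPKM with leucine.

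**Figure D3:**
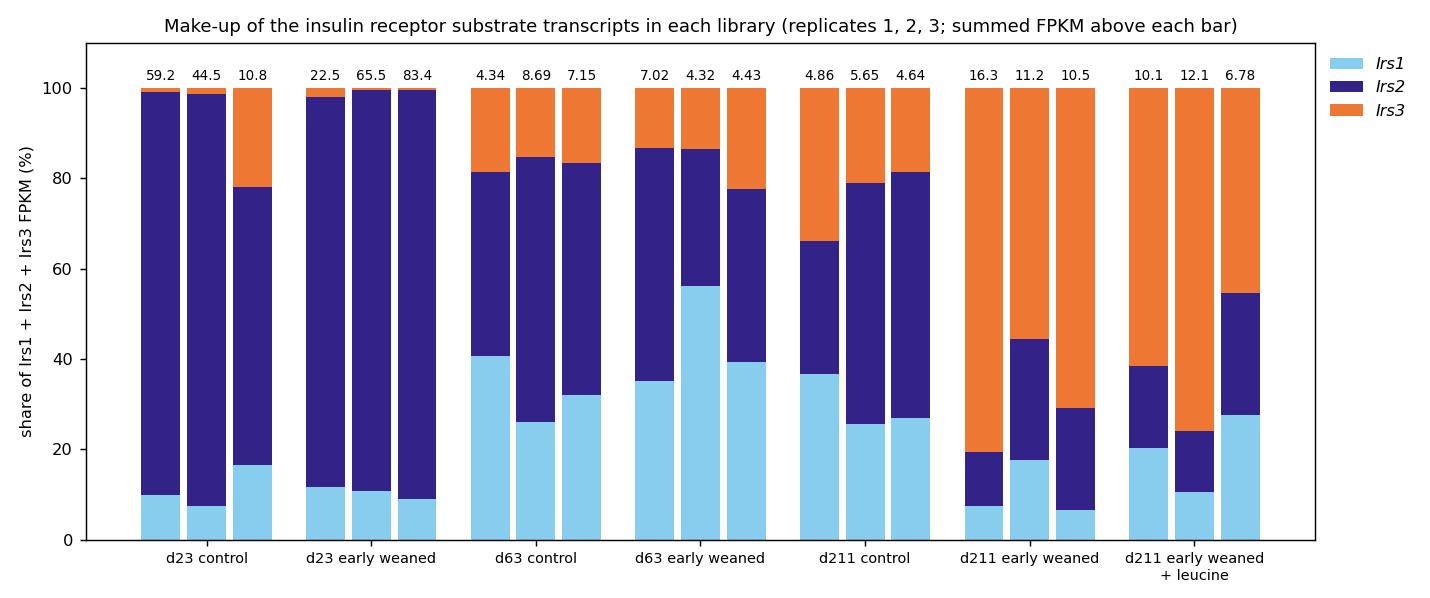
Share of Irs1, Irs2 and Irs3 in their summed FPKM (vertical axis, percent) in each of the 21 libraries, with the summed FPKM above each bar. Irs2 filled most of the bar in all 6 day 23 libraries, and Irs3 was the largest part in all 6 early weaned day 211 libraries.

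Within one library the ratio of Irs2 to Irs1 needs no scaling between libraries. Its mean log2 value was 2.90 ± 0.893 (SD, n = 3) in day 23 controls and 3.09 ± 0.229 in day 23 early weaned livers, against 0.62 ± 0.585 and -0.12 ± 0.728 on day 63. The difference of the ages was -2.74 (two-sided exact permutation test with the ages exchanged within each weaning arm, p = 0.005, the smallest that the 400 arrangements allow), and every day 23 library lay above every day 63 library. The ratio was chosen with earlier results of these data known, and Irs2 alone already separated the ages. This p-value is therefore no separate support for the age difference. Without 1 library in turn the difference ran from -2.99 to -2.55. On day 211 the ratio differed by 0.44 between early weaned and control livers, by -0.97 between leucine and early weaned livers and by -0.53 between leucine and control livers (exact permutation p = 0.6, 0.1 and 0.4; adjusted over the 3, 0.6, 0.3 and 0.6). With 3 libraries a group, p cannot go below 0.1.

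Pik3r1 (ENSRNOG00000018903, chromosome 2, 31745088 to 31826867, minus strand) encodes the p85-alpha subunit that docks on the substrates. It read 8.98, 7.32 and 5.58 FPKM in day 23 controls and 21.0, 10.7 and 6.83 FPKM in day 63 controls, so the groups overlapped through the wide day 63 values (log2 0.82, SE 0.388, edgeR adjusted p = 0.156). The early weaned livers read 7.22, 10.2 and 13.8 FPKM on day 23 and 11.2, 16.9 and 14.2 FPKM on day 63. On day 211 all 9 libraries lay between 7.52 and 14.4 FPKM. No weaning or leucine comparison of Pik3r1 passed the test, and its largest log2 difference among them was 0.48 on day 23 (SE 0.386, edgeR adjusted p = 0.951).

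Akt2 (ENSRNOG00000018677, chromosome 1, 84411726 to 84450162, plus strand), the AKT form that carries much of the metabolic insulin signal, spanned the narrowest range of the 7 members for its level. It read 22.7, 20.4 and 24.6 FPKM in day 23 controls and 26.8, 35.6 and 28.3 FPKM in day 63 controls, without overlap (log2 0.43, SE 0.156, edgeR adjusted p = 0.0792). Early weaned livers read 19.3, 24.1 and 25.8 FPKM on day 23 and 24.7, 22.9 and 23.2 FPKM on day 63, the latter all below the controls of that day (log2 -0.27, SE 0.156, edgeR adjusted p = 0.878). On day 211 the early weaned livers, at 27.4, 29.6 and 29.9 FPKM, all lay above the controls, at 25.5, 24.7 and 18.0 FPKM. On that scale the median of all genes was itself higher in early weaned livers, by 0.168 in log2(FPKM + 1). The edgeR difference of Akt2, from TMM-scaled counts, was smaller than the FPKM values show (log2 0.14, SE 0.159, adjusted p = 0.723). With leucine Akt2 read 24.8, 26.9 and 21.6 FPKM. None of these differences was called in the main test. For the age difference in controls, leaving out 1 library in turn gave 0.29 to 0.50 (edgeR adjusted p from 0.0355 to 0.256).

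Foxo1 (ENSRNOG00000013397, chromosome 2, 141451234 to 141527016, plus strand), the transcription factor at the end of the relay, read 11.2, 8.38 and 3.55 FPKM in day 23 controls and 8.61, 11.04 and 12.5 FPKM in day 23 early weaned livers. On day 63 it read 9.61, 7.17 and 5.72 FPKM in controls and 4.48, 5.13 and 6.98 FPKM in early weaned livers. The early weaned groups of the 2 ages did not overlap (log2 -0.83, SE 0.371, edgeR adjusted p = 0.117), and the control groups did (log2 -0.03, SE 0.369, adjusted p = 0.96). Without both control libraries that stood apart, the early weaned difference passed the test (-0.83, edgeR adjusted p = 0.033). None of the libraries compared was left out, so this p-value moved through the fit that all groups share. On day 211 the 9 libraries lay between 1.20 and 3.07 FPKM, and the 3 groups overlapped.

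**Figure D4:**
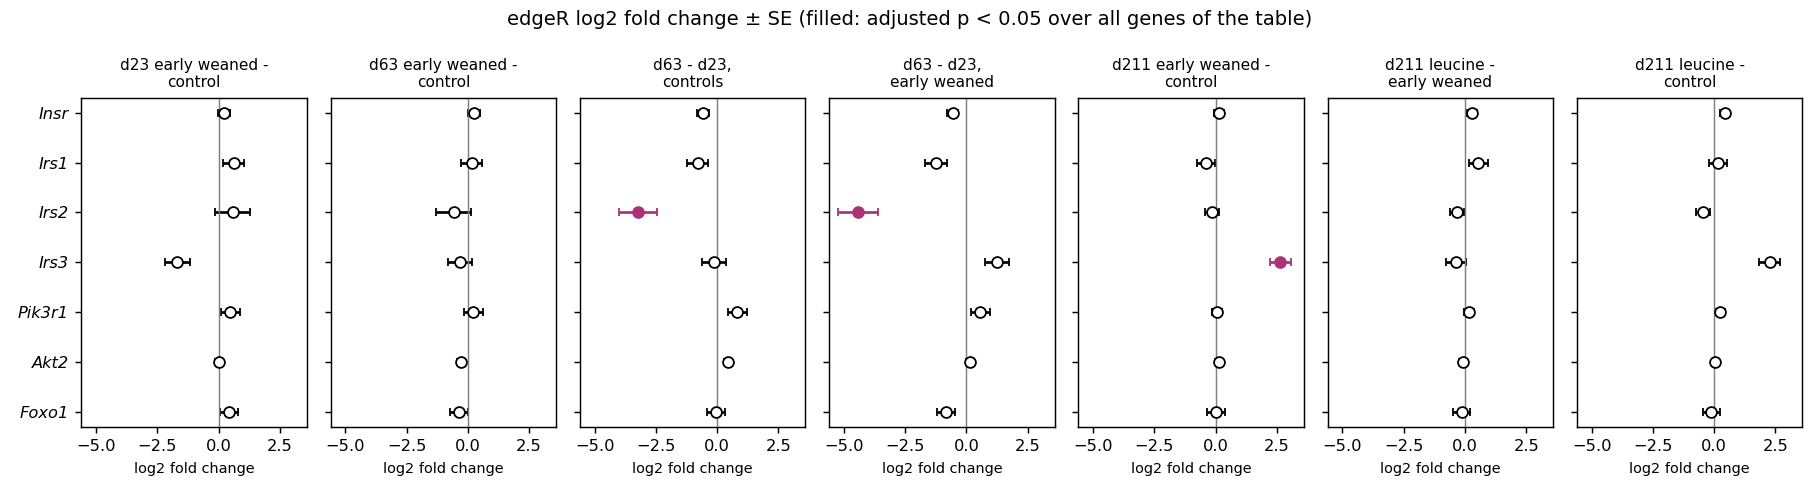
edgeR log2 fold changes with SE (horizontal axes) of the 7 genes in 7 comparisons; filled points had an adjusted p below 0.05 over all genes of the table. Filled points are Irs2 between the ages in controls (-3.25) and in early weaned livers (-4.41), and Irs3 between early weaned and control livers on day 211 (2.63).

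With weaning on days 23 and 63, none of the 7 members was called. Over all genes the test called 0.013% on day 23 and 0% on day 63, where 933 genes had an unadjusted p below 0.05 and DESeq2's Wald test called 94. On days 23 and 63 no gene was called among 11 tested receptor and docking partners, 21 genes of the relay, 20 brakes on the signal, 17 FOXO1-side targets and 11 insulin-raised genes. With so few calls over all genes, this does not show that the lists were unchanged. Of the 17 targets, 11 were higher on day 23 (median log2 0.23 against -0.03 over all genes). On day 63 12 of them were lower (median -0.25 against -0.01). The targets include Irs2 and Insr. Day 23 control replicate 3 was the lowest day 23 library for Irs2, Igfbp1, G6pc and Ppargc1a, and the day 23 median without it is not given. The smallest p on the target side belonged on both days to Angptl4, at -2.11 on day 23 (SE 0.359, edgeR adjusted p = 0.17) and -1.48 on day 63 (SE 0.352, adjusted p = 0.505), with no overlap on either day. Phlpp2, a phosphatase that acts on AKT, read 0.593 ± 0.333 FPKM (SD, n = 3) in day 63 controls and 1.53 ± 0.257 FPKM in early weaned livers (edgeR adjusted p = 0.679).

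Between the ages some genes around the members were called in both directions, against 17.6% of all genes called in controls and 27% in early weaned livers. Of 11 receptor and docking partners tested, 1 rose and 2 fell in controls (27.3%): Ide, the insulin-degrading enzyme, rose (0.70, edgeR adjusted p = 0.0291), and the adaptors Sh2b1 and Sh2b2 fell (-0.49 and -0.86, adjusted p = 0.0419 and 0.0322). In early weaned livers Grb2 rose and Shc1, Sh2b1 and Sh2b2 fell (36.4%). Of 21 relay genes, 1 rose and 2 fell in controls (14.3%, below the share of all genes), with Tsc2 (0.67, adjusted p = 0.0304) rising and Tbc1d4, an AKT substrate that controls glucose transporter traffic in muscle and fat, falling (-1.59, adjusted p = 0.0127) with Rictor. In early weaned livers 3 rose and 2 fell (23.8%, also below that share): Pik3cd, Pik3r2 (0.82, adjusted p = 0.0243) and Tsc2 rose, and Tbc1d4 and the FOXO1 relative Foxo3 (-2.71, adjusted p = 0.0197) fell.

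Of 20 brakes on the signal, 3 rose and 5 fell in controls (40%, against 17.6% of all genes) and 3 rose and 7 fell in early weaned livers (50%, against 27%). The receptor-type phosphatase Ptprf rose most firmly, from 6.98 ± 4.14 to 51.3 ± 14.1 FPKM (SD, n = 3) in controls (log2 2.88, edgeR adjusted p = 0.0023) and from 5.79 ± 1.63 to 34.0 ± 3.17 FPKM in early weaned livers (log2 2.68, adjusted p = 0.00214). Grb10, an adaptor that binds and restrains the receptor, fell by 1.30 in controls (adjusted p = 0.0215) and by 1.91 in early weaned livers (adjusted p = 0.00378). Enpp1, a membrane pyrophosphatase reported to inhibit the receptor, rose by 0.90 (adjusted p = 0.00525) and 0.72 (adjusted p = 0.00747).

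On day 211 no gene of the receptor, relay, brake, FOXO1-side or insulin-raised lists was called between early weaned and control livers. Over all genes 0.719% were, so an absence of calls in lists of this size says little about them. Of the 11 insulin-raised genes 8 were higher, with a median log2 difference of 1.25 against 0.02 over all genes. Insig1 had the smallest p among the 11 (2.68, SE 0.624, edgeR adjusted p = 0.0766). Klf15, a fasting-induced transcription factor, read 18.2, 15.97 and 21.7 FPKM in early weaned livers and 37.7, 32.7 and 36.9 FPKM with leucine, and rose with leucine (log2 1.10, SE 0.177, adjusted p = 0.0448). Its controls, at 26.8, 35.6 and 24.4 FPKM, lay above the early weaned livers (log2 -0.86, adjusted p = 0.0609). It was the only gene of these 5 lists called with leucine, 5.88% of the FOXO1-side list against 0.36% of all genes. Circadian genes moved between leucine and early weaned livers too, where Hlf (2.32, edgeR adjusted p = 0.00908), Cry2 and Tef rose (16.7% of 18 tested). Their part in the Klf15 difference was not tested.

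The genes most like each member were taken as those with the highest r of log2(FPKM + 1), the smaller of the value over 12 Wistar and over 9 SD libraries, among 10388 genes. These libraries share group, age and depth, so the values are descriptions. Insr was closest to Tom1l2 (0.944 and 0.920) and Rnf125, Irs1 to Thrb (0.902 and 0.944) and Ppm1k, and Irs2 to LOC691918 (0.830 and 0.852) and Ptp4a1. Irs3 was closest to Arse (0.907 and 0.929) and Sirt5, Pik3r1 to Yipf6 (0.867 and 0.867) and Mis12, Akt2 to Ccdc71 (0.866 and 0.909) and Trappc12, and Foxo1 to Larp1 (0.862 and 0.855) and Tp53inp1.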

How the data were processed

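The authors deposited 1 table for the Wistar and 1 for the Sprague Dawley libraries; per the file headers, every library has a count column and an FPKM column. The deposited counts are raw whole numbers in which 4 and 8 are more frequent than their neighbours but other low values occur too; what 1 fragment is worth is not known, and counts divided by 4 were tried as an alternative. The deposited FPKM values are scaled by the authors for length and library size; 0 is written as 0.0001 in the Sprague Dawley table and was read as 0. The mouse builds GRCm38 and mm10 appear in the submitters' processing notes, while the tables hold rat identifiers and coordinates; an aligner is not given in the sources used here. Libraries were made with a SMARTER mRNA kit, per the labels' protocols; strand is not stated, so overlapping genes are uncertain.

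Counts were tested per table with edgeR 4.0.16 in R 4.3.3 (quasi-likelihood, TMM scaling, filterByExpr with a minimum count of 10, all groups of a table in 1 fit, Benjamini-Hochberg adjustment over all genes tested). The biological coefficient of variation was 0.404 (Wistar) and 0.379 (Sprague Dawley). The test was checked on simulated data. Alternatives used DESeq2 1.42.0, limma 3.58.1 on log2(FPKM + 1), log2(FPKM + 0.1) and log2(TPM + 1), other scaling and filters, a replicate block and leaving out each library in turn; leaving out both control libraries that stood apart was added after the data were seen. Genes beyond the members were named by a rule: per list and comparison, at most the 4 called genes of smallest p, or the 1 of smallest p where none was called with weaning or leucine. Sesn1, Epcam, Pik3cd and, in the age comparison, Angptl4 and Bcl6 in early weaned livers fall outside it and were named after their values were seen. The members and lists were chosen with earlier results of these data known. Symbols Irs4, G6pc1, Mlxipl and Pecam1 of the lists were not matched. A result of the insulin-raised list, and that list's counts between the ages, are not reported here.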

Additional observations from a re-analysis of the deposited data

Results flagged for a closer look

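Early weaned Irs3 values lay on opposite sides of their controls at 2 ages. Every early weaned library lay below every control on day 23 in Wistar livers (log2 -1.68) and above every control on day 211 in Sprague Dawley livers (log2 2.63). Only the second was called, and the day 23 value was -0.71 without day 23 control replicate 3. For Akt2 every early weaned library lay below every control in FPKM on day 63 (edgeR log2 -0.27, SE 0.156). On day 211 every one lay above (log2 0.14, SE 0.159), and neither difference was called. The share of all genes whose groups did not overlap was not computed, so these separations are descriptions only. The differences between ages were not tested, because the ages stand in tables of different strains that were normalized separately.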

How the results depend on the processing

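With similar depth in all groups, 3 libraries a group limit the precision; counting error matters most for Irs3 on day 23, at 48 to 287 counts. Replicate numbers did not pair the libraries: deviations of same-numbered libraries correlated at a median of 0.009 (Wistar) and 0.010 (Sprague Dawley), and with a replicate block no member's call changed, while calls over all genes between early weaned and control livers on day 211 went from 108 to 49. The early weaned fall of Irs2 was called under every alternative run, and Irs3 on day 211 under every one that kept all libraries (edgeR, limma and DESeq2).

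The number of members called moved as follows. Between the ages in controls it was 1, and became 2 with DESeq2 (Irs2 and Akt2), 0 with only the groups compared (Irs2 at -3.25), 2 without both control libraries that stood apart (Insr and Irs2), and 0 to 4 without 1 library, with 4 without day 23 control replicate 3. Between the ages in early weaned livers it was 1, and became 2 with DESeq2, 3 with log2(FPKM + 1), 2 with log2(FPKM + 0.1), 2 with counts divided by 4, 5 with only the groups compared, 5 without both libraries, and 1 to 2 without 1 library. Both libraries are controls, so leaving them out removed no early weaned library. On day 211 it was 0 to 1 without 1 library for early weaned against control, and 1 with DESeq2 for leucine against control.

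Changes of sign occurred only among differences that were not called. The limma fits move the median of all genes by 0.168 to 0.253 between early weaned and control livers on day 211, by -0.135 to -0.172 between leucine and early weaned livers and by -0.122 to -0.15 between the ages in early weaned livers. Their order below is log2(FPKM + 1), log2(FPKM + 0.1) and log2(TPM + 1). They turned the age difference in controls for Irs3 to 0.021, 0.13 and 0.074 and for Foxo1 to 0.054, 0.078 and 0.10, and the age by weaning term of Insr to -0.13, -0.13 and -0.16. On day 211 they turned Irs2 between early weaned and control livers to 0.068, 0.11 and 0.15 and Pik3r1 between leucine and early weaned livers to -0.014, -0.016 and -0.044, and the latter pair of fits turned Foxo1 between leucine and control livers to 0.011 and 0.035. The age difference of Irs3 in controls was also 0.078 with the replicate block and 0.71 without both libraries. Akt2 on day 23 was -0.0032 with counts divided by 4 and -0.0049 with the block. The cause was not tested.

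Leaving out 1 library gave ranges that crossed 0 for Akt2 on day 23 (-0.082 to 0.12), for the age difference in controls of Irs3 (-0.42 to 0.86) and Foxo1 (-0.38 to 0.37), for the age by weaning term of Insr (-0.27 to 0.25) and Pik3r1 (-0.57 to 0.30), and for Pik3r1 on day 63 (-0.090 to 0.78). On day 211, early weaned against control, they did so for Insr (-0.10 to 0.26), Irs2 (-0.42 to 0.12), Pik3r1 (-0.10 to 0.17), Akt2 (-0.0034 to 0.24), Foxo1 (-0.30 to 0.32) and the log2 ratio of Irs2 to Irs1 (-0.016 to 0.67), for leucine against control for Akt2 (-0.10 to 0.15) and Foxo1 (-0.43 to 0.19), and for leucine against early weaned for Foxo1 (-0.34 to 0.057). With only the groups compared, the age by weaning term was not run.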
